A study of Caenorhabditis elegans with 12 samples.

Results

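The genes that build the thick filaments of muscle in the nematode Caenorhabditis elegans were followed across genotype and age. They are 10 genes named by symbol: 4 myosin heavy chain genes, of which unc-54 and myo-3 belong to body wall muscle and myo-1 and myo-2 to the pharynx, the light chain genes mlc-1, mlc-2 and mlc-3, the paramyosin gene unc-15, and unc-22 and unc-89, which encode giant filament-associated proteins. The symbols were matched to the WormBase identifiers of the count tables, and all 10 were found among the 46778 genes listed.

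RNA came from whole adults, with 3 biological repeats in each of 4 groups: daf-2(e1370) animals of strain CF1041 at day 9, the same strain at day 1, wild type N2 animals at day 9, and N2 at day 1 of adulthood. All 4 groups were fed OP50 bacteria and were given 50 µM FUdR, an inhibitor of DNA synthesis that blocks the production of progeny, at about the time they became adult. The product of daf-2 is the worm's receptor for insulin-like peptides. The e1370 mutation changes an amino acid and weakens the receptor, so the level of daf-2 mRNA does not check the genotype labels. The comparisons set old against young adults within a genotype, and the genotypes against each other at a given age.

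In muscle, myosin heavy chains assemble around a paramyosin core into thick filaments, and each heavy chain carries a regulatory and an essential light chain near its head. Body wall muscle, which moves the animal, uses the heavy chain MHC B, the product of unc-54, along most of the filament and MHC A, the product of myo-3, at its centre. The pharynx, the muscular pump that takes in food, uses the heavy chains encoded by myo-1 and myo-2. Giant proteins of the titin family lie along the filaments or at the M-line, where the filaments are cross-linked.

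Total counts ran from 20322128 to 47447136 per library, and all 10 genes passed the filter on low counts, the lowest single count being 59, for myo-1. Levels are in CPM, a gene's count relative to its library's TMM-scaled total, and values per kilobase (kb) are CPM divided by the length of the gene's exons merged over its transcripts. In whole animals and with such relative levels, fewer muscle cells, less RNA per muscle cell and more RNA from other tissues cannot be told apart. Some markers of other tissues also differed with age. The summed level of 5 hypodermis markers was 63.1 to 137.7 CPM in daf-2 at day 9 against a range of 886.3 to 1734 CPM at day 1, and 117.3 to 156.7 CPM in wild type at day 9 against 1090.0 to 1607 CPM at day 1. Most of that sum was the collagen gene col-19, at 82.5 ± 34.5 CPM in daf-2 at day 9 against 1132 ± 472 at day 1, and 107.6 ± 16.4 CPM in wild type at day 9 against 1257 ± 255 at day 1 (SD, n = 3 each). Of the 4 markers that passed the count filter, col-19, dpy-7 and sqt-3 were called lower with age in both genotypes, elt-3 was not called (-0.29 in daf-2 and 0.50 in wild type), and rol-6 failed the filter. The summed level of 6 intestine markers was 161.6 to 470.5 CPM in daf-2 at day 9 against at most 2289 CPM at day 1, where the lowest library was replicate 3, and 922.9 to 1156 CPM in wild type at day 9 against 2191 to 2732 CPM at day 1. Most of it was asp-1 and act-5. Called lower with age were 4 of 6 in daf-2 (elt-2, ifb-2, act-5 and asp-1) and 2 of 6 in wild type (ifb-2 and act-5), and in wild type elt-2, ges-1 and elt-7 were at 0.02, 0.24 and 0.58 on the log2 scale, not called. Over all genes tested, 21.5% were called lower with age in daf-2 and 25.6% in wild type. None of these marker genes was at 0 throughout a group, and their part in the results below was not tested. Replicate 3 of daf-2 at day 1 stood apart from its group in the longer filament genes, and replicates 1 and 2 of wild type at day 1 differed from each other in the longest ones. Several results that rest on these libraries are also given without them.

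The fitted level of all 10 thick filament genes was lower at day 9 than at day 1 in both genotypes, except that unc-22 in daf-2 and unc-89 in wild type turned to 0.54 and 0.09 without 1 day 1 library each. In daf-2, 7 of the 10 genes were called lower and 0 higher (edgeR's quasi-likelihood test, Benjamini-Hochberg adjusted p under 0.05), where 21.5% of all 15523 genes tested were called lower and 21.9% higher. In wild type, 6 of 10 were called lower and 0 higher, beside 25.6% lower and 31.2% higher over all genes. The median log2 change of the 10 genes was -2.01 in daf-2 and -1.56 in wild type, beside 0.01 and 0.09 over all genes tested. The 3 day 9 libraries lay below the 3 day 1 libraries for 7 of 10 genes in each genotype, as they did for 25.2% of all genes in daf-2 and 28.7% in wild type. The 10 genes together took 0.04998 ± 0.01375% of counts in daf-2 at day 9 and 0.252 ± 0.098% at day 1, and 0.0495 ± 0.0032% in wild type at day 9 and 0.175 ± 0.045% at day 1 (SD, n = 3 each). The daf-2 libraries of day 1 were at 0.196, 0.195 and 0.366%, the highest being replicate 3.

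**Figure D1:**
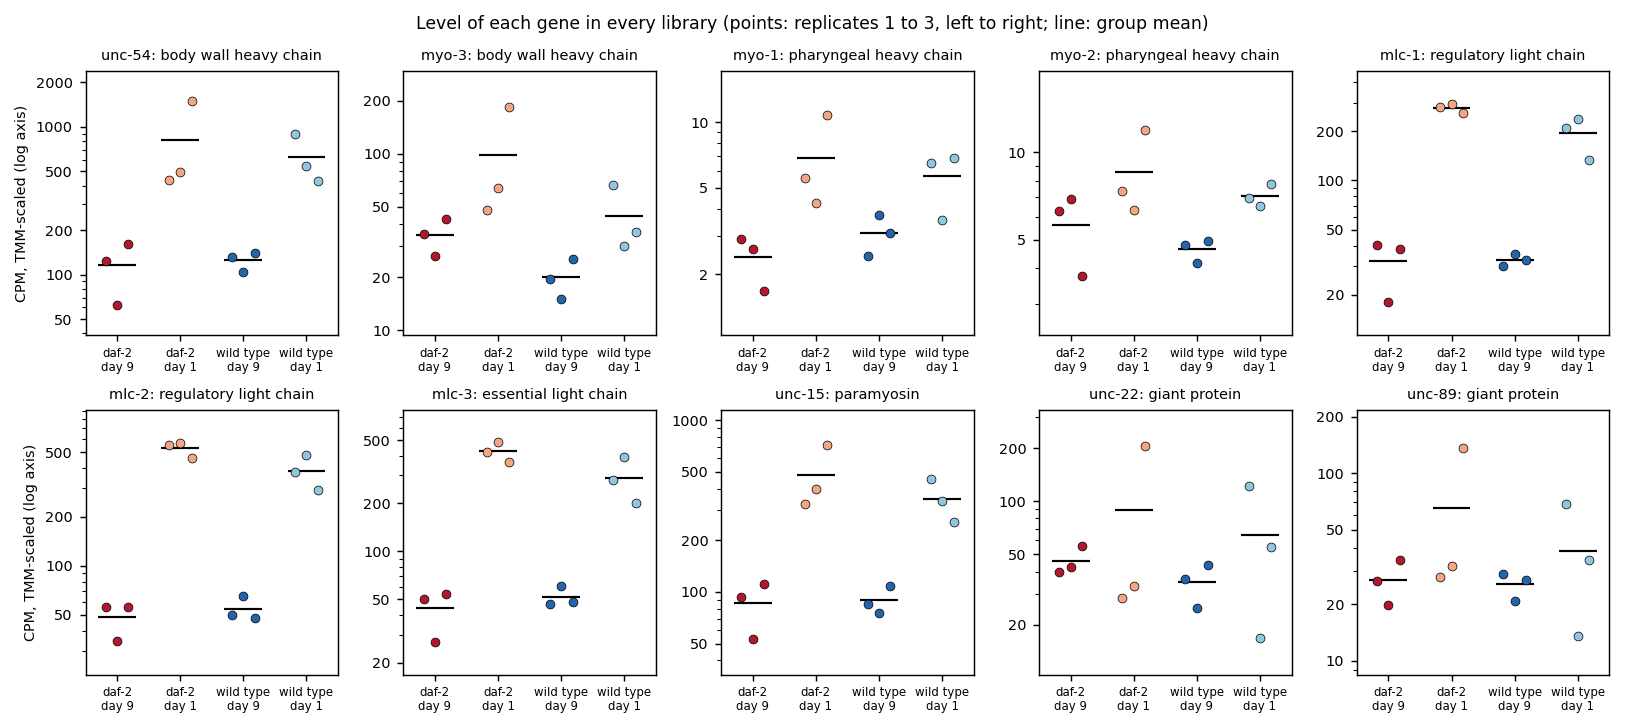
Level of each of the 10 genes in every library, in TMM-scaled CPM on a log axis, with a panel per gene. Points are replicates 1 to 3 from left to right and the line is the group mean; the day 9 libraries of mlc-1, mlc-2, mlc-3, unc-54 and unc-15 lie below all day 1 libraries in both genotypes, while unc-22 and unc-89 spread widely at day 1.

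Among the heavy chains of body wall muscle, unc-54 (chromosome I, 14855901 to 14863482 of build WBcel235, minus strand, 6.204 kb of exon) had the larger loss. It stood at 123.8, 62.2 and 162.0 CPM in the 3 daf-2 libraries of day 9, against 436.3, 494.1 and 1500.0 CPM at day 1. Wild type had 131.3, 103.9 and 139.2 CPM at day 9, against 891.1, 539.0 and 433.1 CPM at day 1. Old and young libraries did not overlap in either genotype, and the 1 daf-2 library of day 1 above the rest is replicate 3. The log2 change was -2.80 ± 0.48 in daf-2 (SE, adjusted p = 0.000672) and -2.32 ± 0.48 in wild type (adjusted p = 0.00146), 6.99-fold and 4.98-fold lower. Without daf-2 day 1 replicate 3 the daf-2 change was -2.04, still called.

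The other body wall heavy chain, myo-3 (chromosome V, 12226817 to 12234343, minus strand, 6.104 kb), fell less. Its levels were 34.9, 26.3 and 42.4 CPM in daf-2 at day 9, against 48.1, 63.8 and 184.6 CPM at day 1. In wild type they were 19.5, 14.98 and 25.3 CPM at day 9, against 66.2, 30.05 and 36.2 CPM at day 1. The ages did not overlap in either genotype, but the margin was small: the highest day 9 daf-2 library was at 42.4 CPM and the lowest day 1 library at 48.1 CPM. This was a log2 change of -1.52 ± 0.45 in daf-2 (adjusted p = 0.0161) and -1.15 ± 0.45 in wild type (adjusted p = 0.045). In daf-2 the call was lost without day 1 replicate 3 (-0.73, adjusted p = 0.0853) and without day 9 replicate 2. In wild type it was lost without day 1 replicate 1 (-0.74, adjusted p = 0.196), day 1 replicate 3, day 9 replicate 1 or day 9 replicate 2, and under upper-quartile scaling (adjusted p = 0.0836) and a stricter count filter (adjusted p = 0.0555).

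The proportion of unc-54 to myo-3 transcript differed between groups. Per kb, unc-54 was 3.49, 2.33 and 3.76 times myo-3 in daf-2 at day 9, against 8.93, 7.62 and 7.996 times at day 1. In wild type the ratio was 6.64, 6.82 and 5.42 at day 9, against 13.2, 17.6 and 11.8 at day 1. The 4 groups did not overlap, and within each age the daf-2 libraries lay below the wild type ones. The unc-54 transcript made up 75.6 ± 4.9% of body wall heavy chain signal per kb in daf-2 at day 9, 89.1 ± 0.8% in daf-2 at day 1, 86.2 ± 1.5% in wild type at day 9 and 93.3 ± 1.3% in wild type at day 1 (SD, n = 3 each). This ratio was singled out after its values were seen and was not tested.

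The pharyngeal heavy chains were far less abundant and their fitted changes with age were smaller than that of unc-54. The myo-1 gene (chromosome I, 7258946 to 7267057, minus strand, 6.457 kb), which encodes MHC D, was at 2.92, 2.61 and 1.68 CPM in daf-2 at day 9, against 5.57, 4.26 and 10.8 CPM at day 1. In wild type it was at 2.42, 3.75 and 3.10 CPM at day 9, against 6.51, 3.54 and 6.87 CPM at day 1. The daf-2 libraries of the ages did not overlap, while in wild type day 9 replicate 2 lay above day 1 replicate 2. The log2 change was -1.53 ± 0.37 in daf-2 (adjusted p = 0.0058), called, and -0.87 ± 0.37 in wild type (adjusted p = 0.0606), not called. In wild type myo-1 was called by DESeq2 (adjusted p = 0.0317), with DESeq2 size factors (0.0479), when the fit held only the wild type libraries (0.0284) and without wild type day 1 replicate 2 (-1.11, adjusted p = 0.0287).

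The myo-2 gene (chromosome X, 12468061 to 12475348, plus strand, 6.334 kb), which encodes MHC C, was at 6.27, 6.90 and 3.75 CPM in daf-2 at day 9, against 7.38, 6.32 and 11.96 CPM at day 1. Wild type libraries had 4.80, 4.17 and 4.94 CPM at day 9, against 6.98, 6.54 and 7.76 CPM at day 1. The daf-2 ages overlapped and the wild type ages did not. The fitted log2 changes were -0.60 ± 0.26 in daf-2 (adjusted p = 0.0831) and -0.61 ± 0.27 in wild type (adjusted p = 0.069), and neither was called. The wild type change was called by DESeq2 (adjusted p = 0.0437) and when the fit held only the wild type libraries (0.0146). In daf-2 it was called without day 1 replicate 2 (-0.78, adjusted p = 0.0456), and ran from -0.78 to -0.32 over the libraries left out in turn.

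Body wall and pharyngeal forms were then set against each other within each library, where scaling between libraries plays no part. The 4 heavy chain genes have nearly equal exon lengths, between 6.104 and 6.457 kb. Per kb, unc-54 was 20.1, 9.19 and 44.0 times myo-2 in daf-2 at day 9, against 60.2, 79.5 and 127.9 times at day 1. In wild type the ratio was 27.8, 25.3 and 28.6 at day 9, against 129.9, 83.8 and 56.9 at day 1. No day 9 library reached the lowest day 1 library of its genotype. Over both genotypes the log2 ratio was lower by 1.86 at day 9 (difference -1.86; -2.08 in daf-2 and -1.65 in wild type; exact two-sided permutation test within genotype, p = 0.005, the smallest that the 400 arrangements allow, and 0.04 adjusted over 8 tests).

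The ratio of unc-54 to myo-1 was also lower in old animals. It was 43.9, 24.7 and 99.8 in daf-2 at day 9, against 81.2, 119.8 and 144.3 at day 1. In wild type it was 55.9, 28.7 and 46.4 at day 9, against 141.9, 157.2 and 65.4 at day 1. Only daf-2 day 9 replicate 3 overlapped the day 1 range of its genotype. The difference in log2 ratio was -1.33 (-1.23 in daf-2 and -1.43 in wild type; exact two-sided permutation test, p = 0.015, adjusted p = 0.04). With 1 library left out, which leaves fewer arrangements, the adjusted p ran from 0.02 to 0.08 for both unc-54 ratios, and the unc-54 to myo-1 call was lost for 9 of the 12 libraries, that of unc-54 to myo-2 for 2.

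With myo-3 in place of unc-54 the age difference was not detected. The difference in log2 ratio between day 9 and day 1 was -0.06 for myo-3 over myo-1 (exact permutation test, p = 0.865, adjusted p = 0.895) and -0.59 for myo-3 over myo-2 (exact permutation test, p = 0.095, adjusted p = 0.152). Between genotypes, myo-3 was 12.6, 10.6 and 26.6 times myo-1 per kb in daf-2 at day 9, against 8.44, 4.20 and 8.57 times in wild type at day 9. At day 1 the ratio was 9.10, 15.7 and 18.05 in daf-2 and 10.7, 8.92 and 5.56 in wild type. The groups did not overlap at day 9 and overlapped at day 1 through daf-2 replicate 1. Over both ages the log2 ratio was 0.97 higher in daf-2 (exact two-sided permutation test within age, p = 0.01, adjusted p = 0.04), with 1.18 at day 9 and 0.76 at day 1. That call was lost for 8 of the 12 libraries left out in turn (adjusted p 0.04 to 0.09). The corresponding difference for myo-3 over myo-2 was 0.67 (exact permutation test, p = 0.06, adjusted p = 0.12), and for the unc-54 ratios it was 0.08 with myo-1 and -0.22 with myo-2 (exact permutation test, adjusted p = 0.895 and 0.827).

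Summed over both genes, pharyngeal heavy chains made up 5.32, 9.44 and 2.51% of heavy chain signal per kb in daf-2 at day 9, against 2.53, 1.81 and 1.29% at day 1. In wild type the share was 4.45, 6.07 and 4.53% at day 9, against 1.35, 1.69 and 2.93% at day 1. The wild type ages did not overlap, and in daf-2 day 9 replicate 3 lay just below day 1 replicate 1. Between the pharyngeal genes themselves, myo-2 was 2.19, 2.69 and 2.28 times myo-1 per kb in daf-2 at day 9, against 1.35, 1.51 and 1.13 times at day 1, while in wild type it was 1.13 to 2.02 times at day 9 and 1.09 to 1.88 times at day 1.

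**Figure D2:**
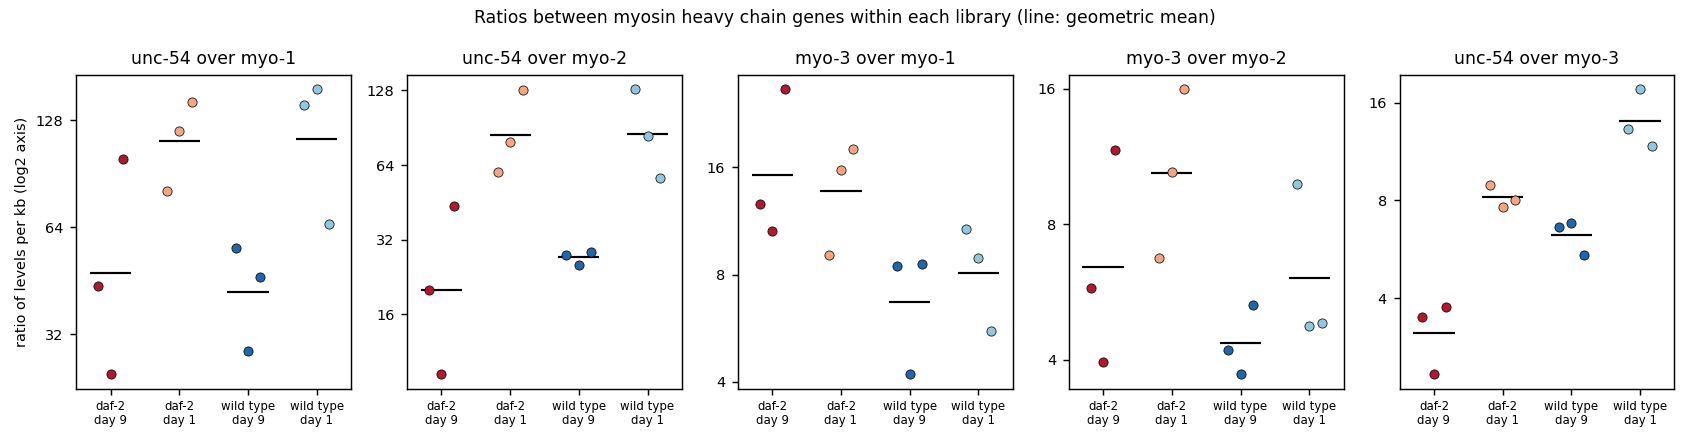
Ratios between heavy chain genes within each library, per kb of exon on a log2 axis, with a panel per pair of genes; points are libraries and lines are geometric means. The ratios of unc-54 to myo-1 and myo-2 are lower at day 9 in both genotypes, the ratio of myo-3 to myo-1 is higher in daf-2, and the 4 groups of the unc-54 to myo-3 ratio, which was not tested, do not overlap.

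The light chain genes had the largest fitted falls of the 10 genes in both genotypes. Of the 2 regulatory light chain genes, mlc-2 (chromosome X, 17455792 to 17456586, minus strand, 0.641 kb) was at 56.0, 34.3 and 55.9 CPM in daf-2 at day 9, against 555.5, 568.8 and 458.6 CPM at day 1. In wild type it was at 50.2, 65.5 and 47.7 CPM at day 9, against 379.5, 479.0 and 294.2 CPM at day 1. The ages were far apart in both genotypes. The log2 change was -3.44 ± 0.23 in daf-2 (adjusted p = 9.59e-07), 10.8-fold lower, and -2.82 ± 0.23 in wild type (adjusted p = 2.02e-06), 7.05-fold lower. The gene C36E6.2, on the opposite strand, shares 77 exon bases with mlc-2, and the libraries did not mark strand. Over all libraries C36E6.2 had 5059 counts where mlc-2 had 68927.

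The other regulatory light chain gene, mlc-1 (chromosome X, 17459210 to 17460778, plus strand, 1.155 kb), lies 2623 bases from mlc-2 in the opposite orientation and moved with it. It was at 40.5, 18.1 and 37.9 CPM in daf-2 at day 9, against 281.0, 293.8 and 257.5 CPM at day 1. Levels in wild type were 30.02, 35.4 and 32.55 CPM at day 9, against 209.8, 239.2 and 133.5 CPM at day 1. Again the old libraries all lay below the young ones. The log2 changes were -3.11 ± 0.28 in daf-2 (adjusted p = 6.3e-06) and -2.57 ± 0.28 in wild type (adjusted p = 1.39e-05). The coding sequences of mlc-1 and mlc-2 are very similar and the treatment of reads matching both is not given in the sources used for this work, so the split between them is uncertain. Their counts added together changed by -3.32 ± 0.25 in daf-2 (adjusted p = 2.05e-06) and -2.73 ± 0.24 in wild type (adjusted p = 3.93e-06).

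The essential light chain gene mlc-3 (chromosome III, 5565025 to 5567382, plus strand, 1.277 kb) was at 50.4, 26.9 and 54.2 CPM in daf-2 at day 9, against 422.8, 483.9 and 367.0 CPM at day 1. In wild type it was at 46.99, 60.6 and 48.2 CPM at day 9, against 282.0, 390.2 and 200.1 CPM at day 1. It followed the regulatory light chains closely. Its log2 change was -3.28 ± 0.29 in daf-2 (adjusted p = 5.09e-06) and -2.48 ± 0.28 in wild type (adjusted p = 1.84e-05). All 3 light chain genes were called lower with age in both genotypes under every alternative run. In daf-2 at day 9, replicate 2 had the lowest level of each light chain gene, of unc-54, myo-3, unc-15 and of unc-89.

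Set against the heavy chains, light chain signal varied by library. The 2 regulatory light chains were together 4.51, 4.37 and 3.54 times the 4 heavy chains per kb in daf-2 at day 9, against 13.8, 12.4 and 3.405 times at day 1. In wild type the ratio was 4.09, 6.499 and 3.685 at day 9, against 4.94, 10.2 and 7.36 at day 1. The low daf-2 value of day 1 is that of replicate 3, in which the heavy chains were high and the light chains were not. Within the light chains the proportion was steadier: regulatory over essential light chain signal per kb was 2.83 to 3.28 in daf-2 at day 9, 3.01 to 3.35 in daf-2 at day 1, 2.72 to 2.83 in wild type at day 9 and 3.12 to 3.67 in wild type at day 1.

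Paramyosin fell by an amount between those of myo-3 and the light chains. Its gene unc-15 (chromosome I, 7376604 to 7383197, minus strand, 3.424 kb) encodes the core protein of thick filaments in both body wall and pharyngeal muscle. It was at 93.3, 52.8 and 110.9 CPM in daf-2 at day 9, against 324.2, 399.0 and 717.6 CPM at day 1. Wild type had 84.9, 75.6 and 108.3 CPM at day 9, against 455.0, 336.3 and 257.0 CPM at day 1. The ages did not overlap. This was a log2 change of -2.49 ± 0.34 in daf-2 (adjusted p = 0.000124), 5.61-fold lower, and -1.96 ± 0.33 in wild type (adjusted p = 0.000385), 3.90-fold lower. Relative to the sum of the heavy chains per kb, paramyosin was at 0.955 to 1.00 in daf-2 at day 9, 0.760 to 1.27 in daf-2 at day 1, 0.973 to 1.14 in wild type at day 9 and 0.849 to 1.05 in wild type at day 1.

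The genes of the giant proteins did not pass the test with age in either genotype. Twitchin, the product of unc-22 (chromosome IV, 11972697 to 12011007, minus strand, 23.368 kb over 9 transcripts), is a kinase of the titin family that lies along the thick filament. It was at 39.6, 42.2 and 56.0 CPM in daf-2 at day 9, against 28.3, 33.2 and 205.6 CPM at day 1. In wild type it was at 36.3, 24.98 and 43.9 CPM at day 9, against 122.0, 16.7 and 55.4 CPM at day 1. The day 1 libraries reached both above and below all day 9 libraries of their genotype. The log2 change was -0.96 ± 0.72 in daf-2 (adjusted p = 0.3) and -0.89 ± 0.72 in wild type (adjusted p = 0.312). Without daf-2 day 1 replicate 3 the daf-2 change was 0.54 in the other direction, and over the wild type libraries left out in turn the wild type change ran from -1.34 to -0.06, none called. The libraries did not mark strand, and unc-22 shares 93 exon bases with ZK829.9 on the opposite strand, a gene with 39847 counts over the 12 libraries where unc-22 had 18976.

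The M-line protein UNC-89, related to vertebrate obscurin, is encoded by unc-89 (chromosome I, 4035702 to 4090885, plus strand, 25.942 kb over 16 transcripts). It was at 26.8, 19.8 and 34.3 CPM in daf-2 at day 9, against 28.05, 32.0 and 135.7 CPM at day 1. Wild type libraries had 29.1, 20.95 and 27.02 CPM at day 9, against 68.3, 13.6 and 34.3 CPM at day 1. As for unc-22, the ages overlapped in both genotypes. This was a log2 change of -1.27 ± 0.59 in daf-2 (adjusted p = 0.1) and -0.59 ± 0.59 in wild type (adjusted p = 0.411). Without wild type day 1 replicate 1 the wild type change was 0.09, and without daf-2 day 1 replicate 3 the daf-2 change was -0.19. Without daf-2 day 1 replicate 1 it was -1.64 and called (adjusted p = 0.0487).

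The day 1 spread of the giant genes went with single libraries. In wild type day 1 replicate 1, unc-22 lay 1.33 and unc-89 1.11 above the group mean on the log2 scale, and in replicate 2 they lay at -1.53 and -1.22. Other genes with at least 10 kb of exon deviated the same way, with a median of 0.50 in replicate 1 and -0.51 in replicate 2 over 42 genes. Over the 8 of these with at least 15 kb the medians were 0.74 and -1.08. In daf-2 day 1 replicate 3, unc-22 lay 1.83, unc-89 1.45, myo-3 1.16, unc-54 1.13, myo-1 0.76, unc-15 0.66 and myo-2 0.53 above the group mean. The light chains there lay at -0.20 to -0.11, and other genes of 10 kb and over had a median of 0.16, the 8 of at least 15 kb 0.19 and those of 6 to 7 kb 0.12. These medians by exon length left out every gene of the lists described below, muscle genes included. Some listed muscle genes were also high in replicate 3. There ketn-1 was at 352.3 CPM against 53.9 and 57.9 CPM in replicates 1 and 2, and unc-52 at 172.5 against 71.2 and 70.5 CPM. Others were not, such as pat-10, at 922.8 against 1190 and 1268 CPM. The summed hypodermis markers, mostly col-19, were also high in that library, at 1734 CPM against 915.9 and 886.3 CPM in the other daf-2 libraries of day 1, and the intestine markers were lower there than the 1969 and 2289 CPM of the other replicates. Whether these differences in makeup or in long transcripts set the values of the filament genes was not tested. After scaling within bins of exon length, chosen after the data were seen, the ageing changes of unc-22 and unc-89 were again not called.

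**Figure D3:**
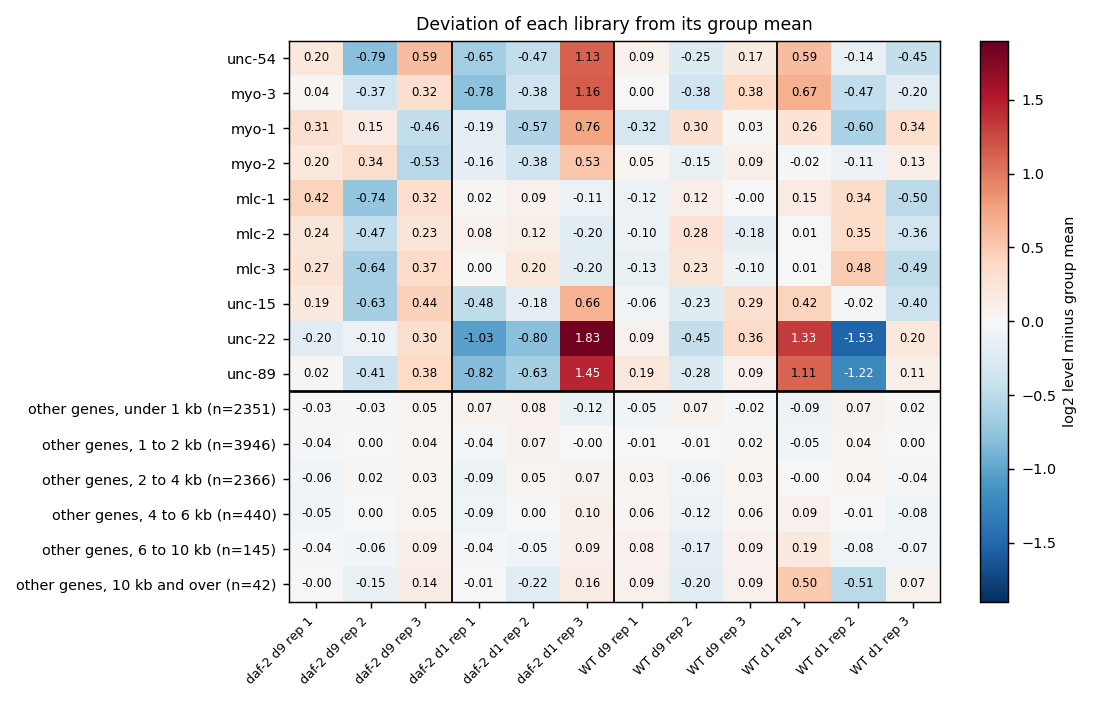
Deviation of each library from its group mean, on the log2 scale, for the 10 genes and, below the line, the median over other genes grouped by exon length. Genes of the other lists, muscle genes included, were left out of these medians. In daf-2 day 1 replicate 3 unc-22 deviated by 1.83 while the light chains lay slightly below 0, and in wild type day 1 replicates 1 and 2 the giant genes and other genes of 10 kb and over deviated in opposite directions.

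No thick filament gene passed the test between genotypes. At day 9, 0 of the 10 genes passed the test between daf-2 and wild type in edgeR's quasi-likelihood test, and 0 had an unadjusted p under 0.05. DESeq2 also called 0, and 10.8% of all genes were called in either direction. The log2 changes ran from -0.37 for myo-1 to 0.80 for myo-3, with a median of -0.05 beside 0.01 over all genes. At day 1, edgeR and DESeq2 again called 0 of 10, with 1 gene, myo-3, at an unadjusted p under 0.05 in edgeR, where 15.4% of all genes were called. All 10 changes at day 1 were above 0, from 0.27 for myo-2 to 1.16 for myo-3, with a median of 0.46 beside 0.04. That common direction rested on 1 library: without daf-2 day 1 replicate 3, unc-54 was at -0.45, myo-1 at -0.23, myo-2 at -0.08, unc-22 at -1.10 and unc-89 at -0.40.

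The gene nearest to a call between genotypes was myo-3. At day 9 it was at 34.9, 26.3 and 42.4 CPM in daf-2 against 19.5, 14.98 and 25.3 CPM in wild type, and the libraries did not overlap, as was so with daf-2 higher for 20.1% of all genes. The log2 change was 0.80 ± 0.45 (adjusted p = 0.296; 95% interval -0.18 to 1.77). Deviations of same-numbered libraries of the genotypes correlated at 0.357, 0.135 and 0.577 at day 9, which does not establish a pairing. A fit of the day 9 libraries alone, with the replicate number as a block, was added after the data were seen. There the change was 0.79 with an adjusted p of 0.00197 (edgeR). With the block in the fit of all 12 libraries the adjusted p was 0.207, and with the day 9 libraries alone and no block it was 0.0568. At day 1 myo-3 was at 48.1, 63.8 and 184.6 CPM in daf-2 against 66.2, 30.05 and 36.2 CPM in wild type, which overlapped. The change was 1.16 ± 0.44 (adjusted p = 0.0922), it was 0.31 without daf-2 day 1 replicate 3 (adjusted p = 0.518), and it was 1.57 and called without wild type day 1 replicate 1 (adjusted p = 0.043).

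Light chains were 1.37 to 1.46 times as high in daf-2 as in wild type at day 1 by the fit, without passing the test. This was a log2 change of 0.52 ± 0.26 for mlc-1 (adjusted p = 0.185), 0.46 ± 0.21 for mlc-2 (0.154) and 0.55 ± 0.26 for mlc-3 (0.168). For mlc-1 alone of the 10 genes the daf-2 libraries of day 1 all lay above the wild type ones, which was so for 17.2% of all genes. At day 9 the light chains were at -0.03 ± 0.26, -0.16 ± 0.21 and -0.25 ± 0.27, and paramyosin was at -0.07 ± 0.32.

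The fall with age was not shown to differ between genotypes for any of the 10 genes. The interaction, the daf-2 age change less the wild type one on the log2 scale, was called for 0 of 10 in edgeR, with 0 at an unadjusted p under 0.05, and for 0 in DESeq2, where edgeR called 5.29% of all genes. It was below 0 for 9 of the genes, with a median of -0.53 beside -0.05 over all genes, but without daf-2 day 1 replicate 3 it was 0.32 for unc-54, 0.46 for myo-3, 1.47 for unc-22 and 0.44 for unc-89. The estimates nearest to a call were -0.79 ± 0.37 for mlc-3 (adjusted p = 0.219; 95% interval -1.60 to 0.02) and -0.62 ± 0.30 for mlc-2 (adjusted p = 0.235; 95% interval -1.27 to 0.04). For unc-54 the interval was -1.88 to 0.91 and for myo-2 it was -0.80 to 0.82.

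**Figure D4:**
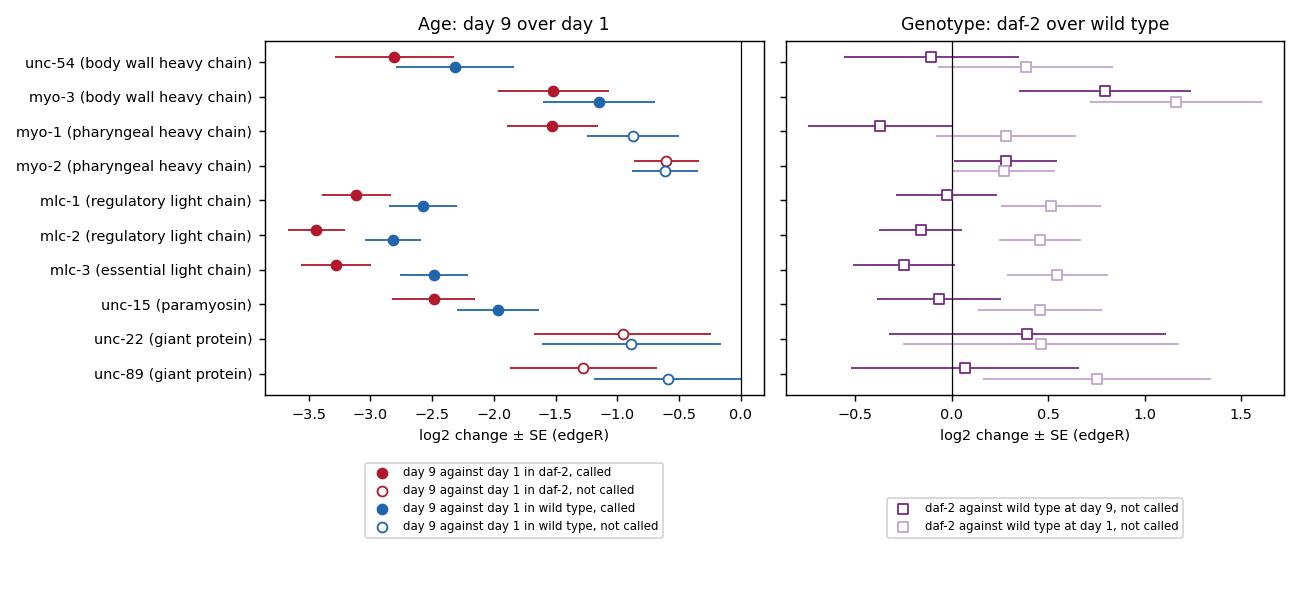
Log2 change ± SE (edgeR) of each gene, with age on the left (red daf-2, blue wild type) and with genotype on the right (dark day 9, light day 1); filled symbols are called at an adjusted p under 0.05. Changes with age run from -3.44 for mlc-2 in daf-2 to -0.59 for unc-89 in wild type, and no genotype change is called.

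Per kb, the order of levels was the same in all 4 groups: mlc-2, mlc-3, mlc-1, unc-15, unc-54, myo-3, unc-22, unc-89, myo-2, myo-1. In daf-2 at day 9 the group means ran from 76.1 ± 19.5 CPM per kb for mlc-2 to 0.3722 ± 0.09997 for myo-1, and at day 1 from 823.2 ± 93.8 to 1.06 ± 0.54. In wild type they ran from 84.95 ± 15.05 to 0.479 ± 0.103 at day 9 and from 599.4 ± 144.3 to 0.873 ± 0.283 at day 1 (SD, n = 3 each). Between neighbours in the order, the libraries of mlc-2 and mlc-3 and those of unc-54 and myo-3 were apart in all 4 groups, while those of unc-15 and unc-54 overlapped in all 4. The remaining neighbours overlapped in at least 1 group: myo-2 and myo-1, for example, were apart at day 9 in both genotypes and overlapped at day 1.

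The genes whose levels followed unc-54 most closely over the 12 libraries were mostly other muscle genes. Among the 5239 named genes whose mean level reached 10 CPM, Pearson's r of log2 CPM with unc-54 was 0.98 for tnt-3 and mup-2, which encode troponin T, for pqn-22, for unc-52, which encodes the basement membrane protein perlecan, and for dim-1, a gene of muscle filament organization. Among the 10 genes themselves, r with unc-54 was 0.99 for unc-15, 0.93 for mlc-1, 0.91 for mlc-2 and mlc-3, 0.81 for myo-3 and myo-1, 0.69 for myo-2, 0.65 for unc-89 and 0.49 for unc-22. The 3 light chain genes correlated with each other at 0.995 to 0.997, and with unc-22 at 0.14 to 0.19. For myo-2 the closest genes were lir-2 (0.87), spdl-1 (0.85), which encodes a kinetochore protein, clsp-1 (0.83), the collagen gene col-81 (0.82) and unc-97 (0.82), which encodes a LIM protein of muscle attachments. These correlations describe 12 libraries that share 4 group means, and are given without a test.

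Other sarcomere genes fell as well, though not throughout. Of 17 thin filament genes tested, 11 were called lower and 0 higher with age in daf-2, beside 21.5% and 21.9% of all genes. In wild type 13 were called lower and 2 higher, beside 25.6% and 31.2%. The list's medians were -1.59 and -1.32. Within that list the troponin T gene tnt-2 was at 9.08 ± 2.62 CPM in daf-2 at day 9 against 268.6 ± 41.0 at day 1, and at 8.44 ± 1.26 CPM in wild type at day 9 against 230.3 ± 75.3 at day 1 (SD, n = 3 each). The troponin I gene unc-27 changed by -3.10 in daf-2 and -2.49 in wild type, the calponin-related gene unc-87 by -2.46 in daf-2, and the troponin C gene pat-10 by -2.33 in wild type, all called.

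Genes of the M-line, dense bodies and filament assembly had medians nearer to 0. Of 25 tested, 12 were called lower and 1 higher in daf-2, beside 21.5% and 21.9% of all genes. In wild type 8 were called lower and 3 higher, beside 25.6% and 31.2%. The list's medians were -0.43 and -0.29. The myosin chaperone gene unc-45 was at 52.6 ± 6.2 CPM in daf-2 at day 9 against 75.4 ± 5.1 at day 1, and at 45.6 ± 4.2 CPM in wild type at day 9 against 78.9 ± 9.3 at day 1. Its log2 change was -0.52 ± 0.12 in daf-2 (adjusted p = 0.00412) and -0.79 ± 0.12 in wild type (adjusted p = 0.000169). Within the list dim-1 changed by -2.29 in daf-2 and -1.97 in wild type, the zyxin gene zyx-1 by -1.45 and -0.92 in the same order, and alp-1, of the ALP/Enigma family, by -1.38 in daf-2, all called.

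Other myosin genes took mixed courses. Of 15 tested, 3 were called higher and 3 lower with age in daf-2, beside 21.9% and 21.5% of all genes. In wild type 4 were called higher and 2 lower, beside 31.2% and 25.6%. The medians were -0.09 and 0.13. The list held myo-5, at 6.58 ± 0.81 CPM in daf-2 at day 9 against 6.94 ± 3.38 at day 1. In wild type myo-5 was at 10.1 ± 1.2 against 8.15 ± 3.33 CPM. It also held myo-6, at 3.5 ± 0.3 against 2.29 ± 0.96 CPM in daf-2, and 2.41 ± 0.17 against 1.58 ± 0.81 CPM in wild type (SD, n = 3 each). The nonmuscle regulatory light chain gene mlc-4 rose by 0.50 in daf-2 (adjusted p = 0.00219) and 0.60 in wild type (adjusted p = 0.00041). The nonmuscle heavy chain gene nmy-2 was at -0.09 and 0.03, not called, and nmy-1 at -0.36 in daf-2, not called, and 0.67 in wild type (adjusted p = 0.0291). The light chain gene mlc-7 rose by 0.87 in daf-2 (adjusted p = 0.00157) and 1.47 in wild type (adjusted p = 2.83e-05), and the unconventional myosin gene hum-7 by 0.88 (adjusted p = 0.00441) and 1.21 (adjusted p = 0.000433). The essential light chain gene mlc-5 was at 0.14 and 0.13, not called.

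Of hlh-1, unc-120 and hnd-1, regulators of muscle identity, only hnd-1 was called with age, and only in wild type. The gene hlh-1, which encodes the worm MyoD factor, was at 2.05 ± 0.22 CPM in daf-2 at day 9 against 2.60 ± 0.75 at day 1, and at 1.69 ± 0.43 CPM in wild type at day 9 against 1.69 ± 1.25 at day 1, not called in either genotype. The gene unc-120, which encodes an SRF-like factor, changed by -0.25 in daf-2 (adjusted p = 0.498) and 0.55 in wild type (adjusted p = 0.125), neither called. The gene hnd-1, which encodes a HAND factor and was named after its values were seen, was at 4.04, 3.73 and 4.06 CPM in daf-2 at day 9 against 13.6, 4.53 and 6.51 CPM at day 1, and at 2.01, 1.99 and 1.17 CPM in wild type at day 9 against 9.997, 3.36 and 6.63 CPM at day 1. It was called lower in wild type (-1.95 ± 0.44, adjusted p = 0.00278) and not in daf-2 (-1.06 ± 0.42, adjusted p = 0.0556), and the ages did not overlap in either genotype. Of 16 body wall muscle regulators and excitation-contraction genes, 3 were called higher and 1 lower in daf-2, and 2 higher and 2 lower in wild type, where the higher count was 8 under upper-quartile scaling. Over all genes 21.9% were called higher and 21.5% lower in daf-2, and 31.2% and 25.6% in wild type. The list's median log2 change was 0.02 in daf-2 and 0.42 in wild type. The calsequestrin gene csq-1 fell by 3.06 in daf-2 and 2.55 in wild type on the log2 scale, while the acetylcholine receptor subunit gene unc-38 rose by 0.64 and 1.35.

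Pharyngeal muscle markers other than the heavy chains were divided. Of 9 genes, 7 passed the count filter, and 1 was called higher and 1 lower with age in daf-2, 2 higher and 1 lower in wild type. The summed level of the 9 was 100.3 to 126.3 CPM in daf-2 at day 9 against 107.2 to 192.5 at day 1, and 92.4 to 96.02 CPM in wild type at day 9 against 93.7 to 173.3 at day 1. The innexin gene inx-3 held the largest share of that sum in each group, at 81.1 ± 10.7 CPM in daf-2 at day 9 against 119.5 ± 38.5 at day 1, and 45.1 ± 4.2 CPM in wild type at day 9 against 88.95 ± 35.27 at day 1, and it was called lower in wild type (-0.98, adjusted p = 0.00783). In daf-2 the innexin gene eat-5 was called higher (1.298, adjusted p = 0.00787) and pha-4, which encodes the FoxA factor of pharyngeal identity, lower (-0.71, adjusted p = 0.0463), and in wild type the channel gene avr-15 was called higher (0.75, adjusted p = 0.00905). The pharyngeal troponin I gene tni-4 rose by 0.54 with age in wild type (adjusted p = 0.0109) and was at 0.33 in daf-2 (adjusted p = 0.106). In the same list tnt-4 was at 0.76 ± 0.15 CPM in daf-2 at day 9 against 0.80 ± 0.30 at day 1. In wild type tnt-4 was at 0.98 ± 0.25 against 1.72 ± 0.38 CPM. For tnc-2 the levels were 1.92 ± 0.39 against 1.94 ± 0.95 CPM in daf-2, and 3.12 ± 0.67 against 2.52 ± 0.78 CPM in wild type. Neither tnt-4 nor tnc-2 was called, and both are also in the thin filament list, as is tni-4. The pharyngeal homeobox gene ceh-22, which failed the filter, was below 0.3 CPM in every library but 1, at 0.300 CPM. Of 5 germ line markers, 1 was called lower and 0 higher in daf-2, and 4 lower and 0 higher in wild type. Of 5 neuron markers, 1 was called higher and 0 lower in each genotype, and of 4 markers of gonad sheath and sex muscles, 2 higher and 0 lower in each. Over all genes the shares called were 21.9% higher and 21.5% lower in daf-2, and 31.2% higher and 25.6% lower in wild type. The part of these tissues in the results for the filament genes was not tested.

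**Figure D5:**
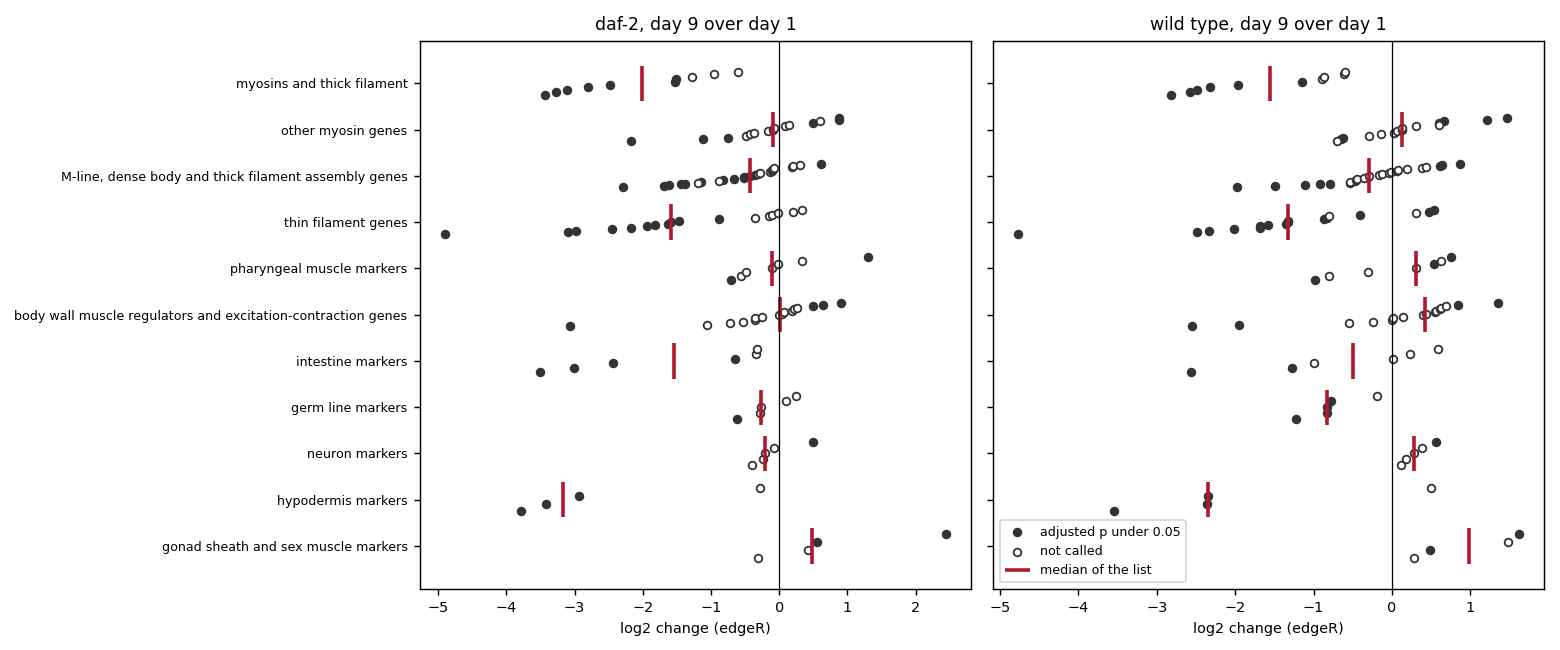
Log2 change with age (edgeR) of every tested gene of the thick filament set and of 10 other gene lists, in daf-2 on the left and wild type on the right; filled points are called at an adjusted p under 0.05 and the red bar is the list's median. The thick filament and thin filament genes have medians of -2.01 and -1.59 in daf-2 and -1.56 and -1.32 in wild type. The pharyngeal markers have medians of -0.11 in daf-2 and 0.30 in wild type. Those of the body wall muscle regulators and excitation-contraction genes are 0.02 and 0.42. The thin filament and pharyngeal lists share tni-4, tnt-4 and tnc-2.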

How the data were processed

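RNA from whole worms was sequenced, per the labels' protocols, from unstranded TruSeq libraries. The authors deposited raw counts, whole numbers for every gene of a library. Build WBcel235 and the tools DESeq2 1.22.2, RSEM 1.3.1 and STAR 2.7.0e are listed, without roles, in the submitters' processing notes; whether reads were split among similar genes is not given in the sources used for this work. Positions and exon lengths came from the Ensembl annotation of WBcel235, which held 46603 of the 46778 listed identifiers; 0 entries named no gene. The 10 genes, the other lists and the tests were chosen with earlier results of these data known.

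The test was edgeR's quasi-likelihood F test (edgeR 4.0.16, R 4.3.3) on TMM-scaled counts, with a minimum count of 10 and 1 fit of 4 group means over 12 libraries, adjusted by Benjamini-Hochberg over 15523 genes. The SE is the log2 change over the square root of F, and 95% intervals use the t distribution with the test's 12.38 degrees of freedom. Within groups, libraries differed beyond counting noise (chi-square per degree of freedom, 12.2 to 109.4), so all 12 were used; the p-values measure the spread between these repeats. Ratios of heavy chain genes used log2 of counts plus 0.5 per kb of exon. The edgeR fit was tried on simulated counts for the age comparison in wild type only. The permutation code was run on 1 constructed case with fully separated ages, which does not measure its error rate. Named genes were all 10, unc-45, nmy-1, nmy-2, mlc-4, mlc-5, hlh-1, unc-120, up to 3 per list with the smallest p in each ageing comparison, and the 5 most correlated with unc-54 and with myo-2; ceh-22 and mention of other genes outside this were chosen after their values were seen. Alternatives were DESeq2 size factors, upper-quartile scaling, DESeq2 1.42.0, no filter, at least 50 counts in 3 libraries, only the libraries compared, a replicate block, each library left out, mlc-1 and mlc-2 added together and, for ratios, a pseudocount of 5 and medians; 3 more were added after seeing the data. Replicate numbers in the titles were taken to pair libraries only for daf-2 against wild type at day 9, judged from the data. There deviations of same-numbered libraries correlated at 0.357, 0.135 and 0.577, and they were not all above 0.1 in the other comparisons. Between genotypes at day 1 they were 0.227, 0.343 and -0.016. The 3 values of a comparison are not independent, since deviations are from a group mean, so they do not establish a pairing.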

Additional observations from a re-analysis of the deposited data

Results flagged for a closer look

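None of the 10 thick filament genes had an age change that differed between genotypes by edgeR's test of that difference (Benjamini-Hochberg over 15523 genes). Among the 110 entries of the other lists, not all of them tested, 4 genes did, beside 5.29% of all genes tested. The unconventional myosin gene hum-4 was at 11.5 ± 2.7 CPM in daf-2 at day 9 against 52.03 ± 2.64 at day 1, and at 20.4 ± 1.9 CPM in wild type at day 9 against 31.4 ± 7.0 at day 1 (SD, n = 3 each), and the difference of its log2 changes, daf-2 minus wild type, was -1.55 ± 0.26 (adjusted p = 0.00612). For avr-15, a glutamate-gated chloride channel gene of the pharynx, that difference was -1.25 ± 0.30 (adjusted p = 0.0309), with 5.70 ± 0.35 CPM in daf-2 at day 9 against 8.01 ± 0.87 at day 1, and 11.4 ± 1.3 CPM in wild type at day 9 against 6.74 ± 2.14 at day 1. The intestinal intermediate filament gene ifb-2 had a difference of -1.74 ± 0.46 (adjusted p = 0.0484), with 18.7 ± 10.4 CPM in daf-2 at day 9 against 149.6 ± 25.1 at day 1, and 52.01 ± 2.49 CPM in wild type at day 9 against 125.9 ± 18.6 at day 1. The fibroblast growth factor receptor gene egl-15 had a difference of -1.21 ± 0.29 (adjusted p = 0.031), with 12.7 ± 1.2 CPM in daf-2 at day 9 against 9.43 ± 2.00 at day 1, and 16.6 ± 2.7 CPM in wild type at day 9 against 5.36 ± 1.17 at day 1.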

How the results depend on the processing

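The counts of thick filament genes called with age, 7 in daf-2 and 6 in wild type, ran from 6 to 8 and from 5 to 7 with 1 library left out. Called between genotypes at day 1 were 0, and 0 to 1 with 1 library left out; at day 9 the count was 0, and 1 (myo-3) with a replicate block in the day 9 libraries alone or without wild type day 1 replicate 1 and daf-2 day 1 replicate 3 together (adjusted p = 0.043). The replicate block over all 12 libraries left the counts at 7, 6, 0, 0 and 0. Upper-quartile scaling put the median of all genes at 0.14 with age in daf-2 and 0.26 in wild type, against 0.01 and 0.09 with TMM. Directions turned only in changes and ratios that were not called. Without both day 1 libraries, the age change was 0.55 for unc-22 in daf-2 and 0.09 for unc-89 in wild type, the day 1 genotype change was -0.061 for unc-54, -0.089 for myo-1, -0.061 for myo-2 and -0.235 for unc-22, and the interaction was 0.61 for unc-22 and 0.021 for myo-3. Scaling within bins of exon length gave -0.04 for unc-22 at day 1, -0.057 for unc-89 at day 9 and an interaction of 0.32 for unc-22. The interaction of myo-2 was -0.024 with upper-quartile scaling and -0.006 with the stricter filter, and that of unc-22 was 0.20 with the replicate block. With 1 library left out, the age change ran from -1.383 to 0.539 for unc-22 in daf-2 and from -0.996 to 0.086 for unc-89 in wild type. The genotype change at day 9 ran from -0.427 to 0.198 for unc-54, -0.219 to 0.264 for mlc-1, -0.274 to 0.041 for mlc-2, -0.433 to 0.012 for mlc-3, -0.298 to 0.191 for unc-15 and -0.145 to 0.255 for unc-89. At day 1 it ran from -0.448 to 0.737 for unc-54, -0.234 to 0.529 for myo-1, -0.084 to 0.445 for myo-2, -1.102 to 1.292 for unc-22 and -0.398 to 1.435 for unc-89. The interaction ran from -0.842 to 0.316 for unc-54, -0.778 to 0.458 for myo-3, -0.168 to 0.334 for myo-2, -0.899 to 1.465 for unc-22 and -1.364 to 0.441 for unc-89. For the log2 ratios the age difference ran from -1.599 to -1.095 for unc-54 over myo-1, -2.146 to -1.581 for unc-54 over myo-2 and -0.258 to 0.111 for myo-3 over myo-1, and the genotype difference from -0.186 to 0.318, -0.503 to 0.061 and 0.771 to 1.119 in the same order. Medians in place of means gave age differences of -1.531 with myo-1 and -1.789 with myo-2 for unc-54, and genotype differences of 0.698 for myo-3 over myo-1 (exact permutation test, adjusted p = 0.0533 for each) and -0.162 for unc-54 over myo-1. Where a setting changed a call or a direction, the cause was not tested. Counting depth bears most on myo-1 and myo-2, with 59 to 383 counts in a library.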

Other observations

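The acetylcholine receptor subunit gene unc-38, which is expressed in body wall muscle and neurons, was the gene of the muscle lists that differed most between genotypes. It was singled out after its values were seen. Its levels were 37.3, 43.3 and 39.3 CPM in daf-2 at day 9 against 3.12, 2.72 and 2.47 CPM in wild type at day 9, and 21.7, 26.2 and 29.1 CPM in daf-2 at day 1 against 1.04, 1.02 and 1.16 CPM in wild type at day 1. The log2 change was 3.85 ± 0.16 at day 9 (edgeR, adjusted p = 4.9e-08) and 4.56 ± 0.17 at day 1 (adjusted p = 2.63e-08).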
